A study of Mus musculus with 9 samples.

Results

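The miR-181 family was followed in small RNA libraries of mouse liver. Its members were chosen by name, as every listed mature miRNA whose name starts with mmu-miR-181a-, mmu-miR-181b-, mmu-miR-181c- or mmu-miR-181d-, and this gave 10 of the 1140 entries: 4 from the 5p arm of the hairpin and 6 from the 3p arm. The livers came from 9 male C57BL/6 mice in 3 groups of 3. Control mice were given normal saline by intraperitoneal injection for 8 weeks, TAA mice were given thioacetamide (TAA), a compound that injures hepatocytes and leads to liver fibrosis, for the same 8 weeks, and recovery mice had the same course of TAA followed by 8 weeks without it. Recovery mice were therefore killed 8 weeks later than the others, so that recovery and elapsed time cannot be told apart. No cell type was separated, and in whole liver fewer cells of a type and less RNA per cell cannot be told apart.

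A miRNA is cut from a hairpin precursor, is loaded onto an Argonaute protein and pairs with target mRNAs mainly through its seed, the bases next to its 5′ end. The miR-181 family is known for tuning the strength of T-cell receptor signalling in developing thymocytes, where miR-181a lowers several phosphatases. In vascular endothelium miR-181b is known to restrain NF-κB signalling through importin-α3, and miR-181 members have been described as responsive to TGF-β in liver cells. The family is encoded in 3 pairs of hairpins, and its 5p arm is usually the strand that is kept.

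The mature sequences of all 10 entries were matched in RefSeq (GRCm38.p6). The 5p arms are shown first because they share the seed and differ by only a few bases behind it, which bears on how reads could be divided among them. Capitals mark the seed, bases 2 to 8 counted from 1 at the 5′ end.
mmu-miR-181a-5p: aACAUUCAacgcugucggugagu
mmu-miR-181b-5p: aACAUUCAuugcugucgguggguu
mmu-miR-181c-5p: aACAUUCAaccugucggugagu
mmu-miR-181d-5p: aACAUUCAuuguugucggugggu
This seed was carried by 4 of 1679 mature mouse miRNA names in the RefSeq table, all of them in the family. Relative to miR-181a-5p, miR-181b-5p differed by A9U, C10U and A21G and was 1 base longer, and miR-181d-5p differed by A9U, C10U, C12U and A21G. MiR-181b-5p and miR-181d-5p differed from each other by C12U alone, apart from the extra base of miR-181b-5p. MiR-181c-5p was at an edit distance of 1 from miR-181a-5p.

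The 3p arms are shown because they tell apart loci that give the same 5p arm.
mmu-miR-181a-1-3p: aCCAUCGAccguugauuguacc
mmu-miR-181a-2-3p: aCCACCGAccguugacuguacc
mmu-miR-181c-3p: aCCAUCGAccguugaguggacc
mmu-miR-181b-2-3p: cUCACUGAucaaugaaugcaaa
MiR-181a-1-3p and miR-181a-2-3p differed by U5C, which lies in the seed, and U16C. MiR-181c-3p had the seed of miR-181a-1-3p and differed from it by U16G and U19G.

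The hairpins were located in the GRCm38 annotation (GENCODE). Mir181a-1 (chr1:137966455-137966541, + strand) and Mir181b-1 (chr1:137966639-137966718, + strand) lay 97 bases apart, in an intron of the processed transcript Gm4258 on the same strand, and both overlapped an exon of the long non-coding RNA A430106G13Rik. Mir181a-2 (chr2:38852735-38852810, + strand) and Mir181b-2 (chr2:38853830-38853918, + strand) lay 1019 bases apart, on the opposite strand to an intron of the nuclear receptor gene Nr6a1. Mir181c (chr8:84178873-84178961, - strand) and Mir181d (chr8:84178716-84178787, - strand) lay 85 bases apart in an intron of Nanos3 on the same strand. MiR-181a-5p and miR-181b-5p are thus each made from hairpins on both chromosomes 1 and 2, and their reads cannot be assigned to a locus.

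The libraries held 9071847 to 12983378 miRNA counts. The family took 0.0197% to 0.0230% of the counts of the control libraries, 0.0656% to 0.0931% in TAA and 0.0273% to 0.0316% in recovery. Levels are given as CPM, counts scaled to a library of 1000000, after scaling by TMM factors, which assume that most miRNAs do not change. These factors were 0.738 to 0.792 in control, 0.766 to 0.887 in recovery and 1.43 to 1.63 in TAA, while miR-122-5p, the most abundant hepatocyte miRNA, had a mean of 266790 CPM in control, 72637 CPM in TAA and 237510 CPM in recovery. The scaling therefore bears on every comparison with TAA, and fold changes by unscaled library totals are given beside the main ones.

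MiR-181a-5p, the member best known from T cells, was the most abundant. Its level was 227, 225 and 253 CPM in the 3 control livers, 382, 303 and 448 CPM in TAA, and 288, 288 and 245 CPM in recovery. Every TAA liver was above every control and every recovery liver, while recovery livers overlapped the control range. Group means were 235 ± 15.3, 378 ± 72.8 and 274 ± 25.1 CPM (SD, n = 3 each), from counts of 1709 to 6677.

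MiR-181b-5p, the member known from endothelium, followed at roughly an order of magnitude lower. It was at 18.7, 14.4 and 19.7 CPM in control, 47.4, 29.6 and 47.2 CPM in TAA, and 26.9, 28.4 and 24.1 CPM in recovery. The 3 groups did not overlap, with recovery between the others. Means were 17.6 ± 2.82, 41.4 ± 10.2 and 26.5 ± 2.18 CPM (SD, n = 3 each).

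The pair from the Nanos3 intron was next. MiR-181d-5p was at 11.2, 9.10 and 10.5 CPM in control, 54.4, 28.9 and 31.3 CPM in TAA, and 16.7, 17.5 and 17.8 CPM in recovery. MiR-181c-5p was at 5.35, 3.03 and 3.99 CPM in control, 18.8, 11.0 and 15.6 CPM in TAA, and 7.27, 8.36 and 7.60 CPM in recovery. For both, the groups were again separate and ordered control, recovery, TAA, and the first TAA liver stood highest. Means of miR-181d-5p were 10.3 ± 1.06, 38.2 ± 14.1 and 17.3 ± 0.564 CPM, and those of miR-181c-5p were 4.13 ± 1.16, 15.1 ± 3.92 and 7.74 ± 0.558 CPM (SD, n = 3 each).

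The 3p arms differ in sequence between the loci. MiR-181a-2-3p, from chromosome 2, was at 4.67, 4.88 and 5.99 CPM in control, 13.8, 9.79 and 11.9 CPM in TAA, and 7.05, 5.60 and 7.88 CPM in recovery. MiR-181a-1-3p, from chromosome 1, was at 6.42, 7.52 and 5.99 CPM in control, 7.15, 6.01 and 4.77 CPM in TAA, and 5.77, 3.86 and 6.14 CPM in recovery. TAA livers were above all others for the chromosome 2 arm, whereas the 3 groups overlapped for the chromosome 1 arm. MiR-181c-3p was at 5.25, 2.77 and 4.79 CPM in control, 19.9, 13.1 and 13.6 CPM in TAA, and 4.06, 3.86 and 5.68 CPM in recovery, so that recovery overlapped control and TAA stood apart.

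The remaining 3p arms had too few counts for a test. MiR-181b-2-3p, from the chromosome 2 pair, had 0 counts in all control and recovery livers and 4, 6 and 4 counts in the TAA livers. With a set floor of 3 counts over a group in place of the 0, and the TAA counts taken as observed, its TAA level was at least 2.58-fold that of control on the TMM scale. By library totals and with the same floor it was at least 5.24-fold. MiR-181b-1-3p, from the chromosome 1 pair, had 6 counts over the control group, 4 over TAA and 5 over recovery. MiR-181d-3p was seen once in all, in TAA replicate 3, so no fold is given. The floor covers counting error in the groups at 0 only. The counting error of the 14 TAA counts of miR-181b-2-3p was left out and would lower these limits.

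**Figure D1:**
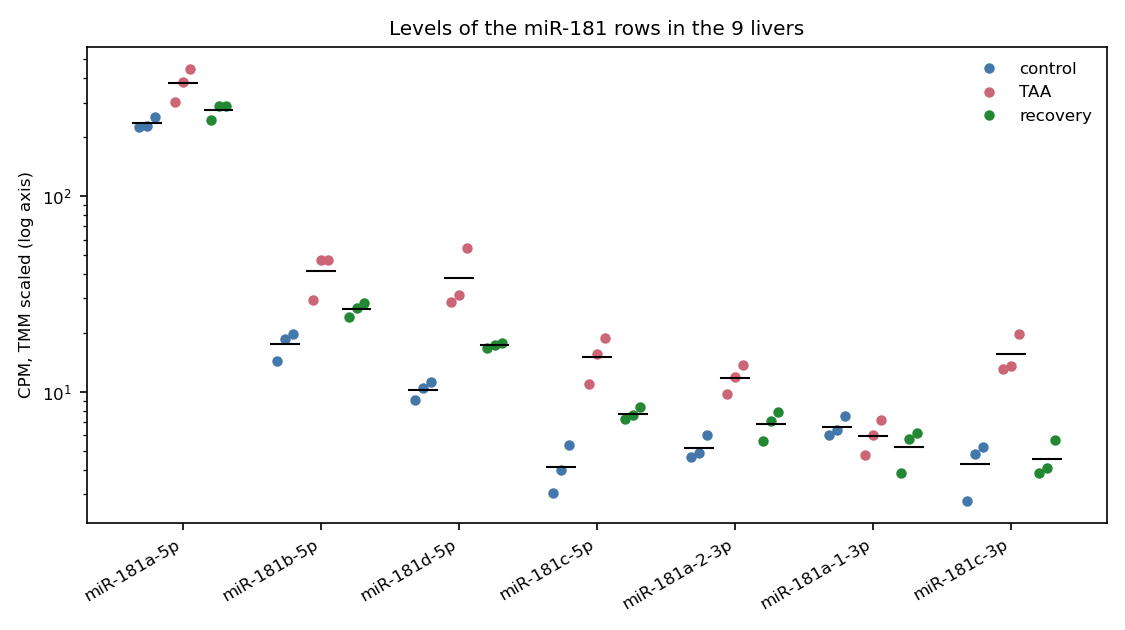
Levels of the 7 tested miR-181 miRNAs in CPM after TMM scaling (log axis). Each point is a liver and the line is the group mean. TAA livers lie above all control livers for each miRNA but miR-181a-1-3p, whose 3 groups overlap on this scale.

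MiR-181a-5p, miR-181b-5p and miR-181d-5p had the 3 highest means, in this order, in each group, while the order of the others changed. The reads were not divided by length, since the arms in the tests were 22 to 24 bases long. In control, miR-181a-5p, miR-181b-5p and miR-181d-5p each lay above the next without overlap, whereas miR-181c-5p and miR-181c-3p overlapped. In TAA, miR-181b-5p (29.6 to 47.4 CPM) and miR-181d-5p (28.9 to 54.4 CPM) overlapped, and so did both miR-181c arms and miR-181a-2-3p. MiR-181a-1-3p lay above both miR-181c arms in control (5.99 to 7.52 CPM, against 2.77 to 5.35 CPM) and below both in TAA (4.77 to 7.15 CPM, against 11.0 to 19.9 CPM), without overlap on this scale. In recovery miR-181c-3p had the lowest mean and miR-181c-5p followed miR-181d-5p. The 5p arm was far more abundant than the 3p arms for miR-181a, miR-181b and miR-181d, while the arms of miR-181c were close to equal in control.

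The effect of TAA was examined first, against control. Of the 7 miR-181 miRNAs that passed the filter on low counts, 5 were differentially expressed (DEMs) by edgeR, meaning a fold change of 2 or more with a false discovery rate (FDR, Benjamini-Hochberg) under 0.05, and all 5 were higher in TAA. Over all 420 miRNAs tested, 25.0% were DEMs that were higher and 16.7% were DEMs that were lower. By the FDR alone 6 of 7 were higher, against 31.9% of all tested, and in 6 of 7 every TAA liver was above every control liver, against 39.3%. The median log2 fold change was 1.14 over the 7 and 0.11 over all tested.

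The largest changes belonged to the Nanos3 pair. MiR-181d-5p rose by a log2 fold change of 1.79 ± 0.25 (SE, edgeR FDR 0.00102). MiR-181c-5p rose by 1.76 ± 0.28 (edgeR FDR 0.00161), and its partner strand miR-181c-3p by 1.76 ± 0.28 (edgeR FDR 0.00161). MiR-181b-5p and miR-181a-2-3p rose by less, at 1.14 ± 0.22 (edgeR FDR 0.00371) and 1.10 ± 0.20 (edgeR FDR 0.00266). MiR-181a-5p had a log2 fold change of 0.60 ± 0.16 (edgeR FDR 0.0165), under the fold limit, and with any 1 control liver left out its FDR was above 0.05 (up to 0.0690). MiR-181a-1-3p did not pass the test, at -0.24 ± 0.23 (edgeR FDR 0.390).

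Because the 5p arms are so alike, they were also summed, so that the division of reads among them no longer matters. A read counted for several members, if there were any, would be counted several times in the sum. The sum was 263, 252 and 287 CPM in control, 503, 372 and 542 CPM in TAA, and 339, 343 and 295 CPM in recovery. Every TAA sum was above all other sums. The sum was higher in TAA than in control by a log2 fold change of 0.72 ± 0.16 (edgeR FDR 0.00594), a value set mainly by miR-181a-5p.

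By library totals the picture shifted as a whole. The median over all tested miRNAs moved from 0.11 to 1.23 and that of the family from 1.14 to 2.26, and 57.4% of all tested miRNAs were DEMs that were higher, as were 6 of the 7 family members. MiR-181a-1-3p changed sign, to 0.87 (edgeR FDR 0.00725), so its direction depended on the scaling. Its distance to the other members did not: miR-181d-5p was at 2.90, miR-181a-2-3p at 2.22 and miR-181a-5p at 1.72 on that scale.

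**Figure D2:**
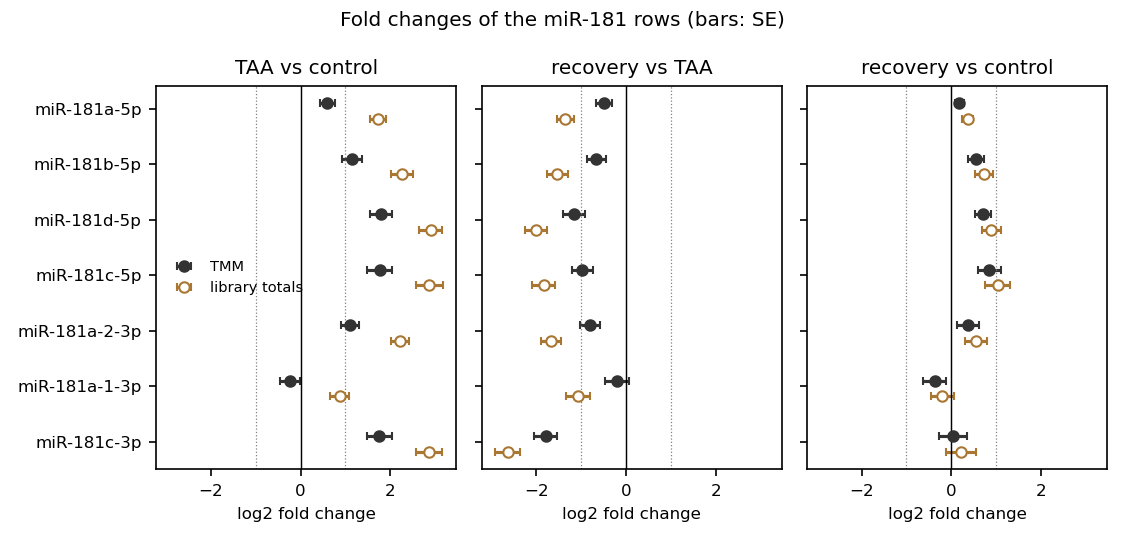
Log2 fold changes of the 7 miRNAs from edgeR with TMM scaling (filled) and with library totals (open) in the 3 comparisons. Bars are standard errors and dotted lines mark a fold change of 2. Library totals move all values of a comparison by about the same amount, and miR-181a-1-3p in TAA against control goes from -0.24 to 0.87.

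The recovery group was next set against the TAA group, which shares its samples with the comparison above. Of 7 miR-181 miRNAs, 2 were DEMs that were lower in recovery, against 14.5% of the 440 tested, and none were DEMs that were higher, against 10.2%. By the FDR alone 5 of 7 were lower (20.7% of all tested), and 6 of 7 did not overlap and were lower (28.9%). Leaving out a single liver left 2 to 5 with an FDR below 0.05, the fewest without the first recovery liver. The median log2 fold change was -0.81 over the 7 and -0.12 over all tested.

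MiR-181c-3p fell most, by a log2 fold change of -1.79 ± 0.26 (edgeR FDR 0.00187). MiR-181d-5p fell as well, with a log2 fold change of -1.15 ± 0.25 (edgeR FDR 0.00874), but without the first TAA liver its change was -0.78 (edgeR FDR 0.0125), which left miR-181c-3p as the one DEM. MiR-181c-5p changed by -0.98 ± 0.24 (edgeR FDR 0.0138), miR-181a-2-3p by -0.81 ± 0.23 (edgeR FDR 0.0248) and miR-181b-5p by -0.66 ± 0.21 (edgeR FDR 0.0414), each under the fold limit. MiR-181a-5p was at -0.48 ± 0.18 (edgeR FDR 0.0651) and miR-181a-1-3p at -0.21 ± 0.27 (edgeR FDR 0.572). The summed 5p arms were at -0.55 ± 0.17 (edgeR FDR 0.0392), but that FDR was 0.123 with no filter on low counts, 0.112 with the replicate block, 0.0589 with DESeq2 size factors, and up to 0.155 when 1 liver was left out. By library totals all 7 were DEMs that were lower, as were 46.1% of all tested, with a family median of -1.67 against -0.98.

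The last comparison asked what remained after recovery, relative to control. With edgeR 0 of 7 miR-181 miRNAs were DEMs, while 10.5% of the 391 tested were DEMs that were higher and 0.767% were DEMs that were lower. At an unadjusted p under 0.05 there were 3 of 7, against 23.0% of all tested. DESeq2 gave 0 DEMs, limma gave 0 with a pseudocount of 1 and 1 with 0.1, and edgeR with library totals gave 1, miR-181c-5p, against 12.0% of all tested. With limma the median log2 fold change over all tested was 0.13 and 0.15, and the share of all tested that were DEMs is not given. By the FDR alone 1 was higher (12.0% of all tested), and 3 of 7 did not overlap and were higher (17.4%). The median log2 fold change was 0.37 over the 7 and -0.03 over all tested.

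The one that passed the FDR was miR-181d-5p, at 0.71 ± 0.18 (edgeR FDR 0.0215), and its FDR reached 0.126 when 1 liver was left out. MiR-181c-5p was at 0.85 ± 0.26 (edgeR FDR 0.0576), and without the first control liver it became a DEM at 1.10 (edgeR FDR 0.0302). MiR-181b-5p was at 0.55 ± 0.18 (edgeR FDR 0.0716). The others were nearer to 0, with miR-181a-5p at 0.18 ± 0.11, miR-181a-2-3p at 0.37 ± 0.25, miR-181a-1-3p at -0.37 ± 0.26 and miR-181c-3p at 0.04 ± 0.31. As a description from the group means, 37.3% of the TAA rise in CPM was left in recovery for miR-181b-5p, 32.9% for miR-181c-5p, 27.2% for miR-181a-5p, 25.2% for miR-181d-5p and 2.33% for miR-181c-3p. By library totals the same shares were 17.5%, 16.7%, 12.5%, 13.3% and 2.71%.

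Shares within the family do not depend on library scaling, and they were used to ask whether members moved apart. The 6 shares were tested with an exact permutation test over the 1680 arrangements of 9 livers in 3 groups, whose smallest p is 0.00357, with Benjamini-Hochberg adjustment over the 6. MiR-181a-5p made up 88.1% ± 1.44 of the 5p counts of the family in control, 80.0% ± 3.53 in TAA and 84.1% ± 0.903 in recovery (SD, n = 3 each; exact permutation p = 0.00357, adjusted 0.00714). The rest was gained by the other members. MiR-181b-5p went from 6.56% ± 0.749 to 8.69% ± 0.747 and 8.13% ± 0.178 (exact permutation p = 0.0107, adjusted 0.0129). MiR-181c-5p went from 1.54% ± 0.437 to 3.19% ± 0.480 and 2.39% ± 0.225 (exact permutation p = 0.00357, adjusted 0.00714). MiR-181d-5p went from 3.84% ± 0.360 to 8.12% ± 2.55 and 5.35% ± 0.602 (exact permutation p = 0.00714, adjusted 0.0107), a call that was lost when any 1 control replicate was left out (exact permutation p = 0.05 to 0.0536). With 3 livers against 3 no pair of groups can go below an exact p of 0.1, and the TAA and control shares of each 5p arm reached that value.

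Pairs of 5p arms were then compared by their log2 count ratios, a test added after the shares had been seen and adjusted over 6 pairs. From control to TAA the ratio to miR-181a-5p rose by 1.21 for miR-181c-5p, 1.17 for miR-181d-5p and 0.55 for miR-181b-5p (exact permutation over 3 groups, adjusted p = 0.0161 for each). The ratio of miR-181c-5p to miR-181b-5p rose by 0.66 (exact permutation over 3 groups, adjusted p = 0.0161), and that of miR-181d-5p to miR-181b-5p by 0.63 (exact permutation over 3 groups, adjusted p = 0.0557). MiR-181d-5p and miR-181c-5p, neighbours in the Nanos3 intron, had a ratio that differed by -0.04 between control and TAA (exact permutation over 3 groups, adjusted p = 0.582). These p-values are for the 3 groups together and not for control against TAA.

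The loci of miR-181a were compared by their 3p arms. These arms differ by 2 bases, and whether reads were divided between them was not tested. A 3p level also depends on how often that strand is kept, so the output of each locus was not measured. Counts of miR-181a-2-3p were 48, 37 and 45 in control, 223, 145 and 178 in TAA, and 66, 61 and 86 in recovery, and those of miR-181a-1-3p were 66, 57 and 45 in control, 116, 89 and 71 in TAA, and 54, 42 and 67 in recovery. The chromosome 2 arm thus outnumbered the chromosome 1 arm in every TAA and recovery liver and in no control liver, where replicate 3 had 45 of each. Its share of both was 43.8% ± 5.52 in control, 66.4% ± 4.79 in TAA and 56.8% ± 2.17 in recovery (SD, n = 3 each; exact permutation p = 0.00357, adjusted 0.00714). In the same chromosome 2 pair, miR-181b-2-3p was seen in TAA livers alone, at the few counts given above. More entries as a whole were seen in TAA libraries (806 to 828) than in control (631 to 663) or recovery (675 to 722). Detection in TAA alone was therefore not shown to be particular to this locus.

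The arms of miR-181c differed in recovery. Counts of miR-181c-5p were 55, 23 and 30 in control, 305, 163 and 232 in TAA, and 68, 91 and 83 in recovery, and those of miR-181c-3p were 54, 21 and 36 in control, 322, 194 and 203 in TAA, and 38, 42 and 62 in recovery. The arms were close to even in control and TAA, and the 5p arm led in every recovery liver. The share of the 3p arm was 50.6% ± 3.53, 50.8% ± 3.87 and 36.7% ± 5.64 (SD, n = 3 each; exact permutation p = 0.0357, adjusted 0.0357). This call was lost when control replicate 1 or 3 or TAA replicate 1 or 2 was left out (exact permutation p = 0.0536 to 0.0679), at counts as low as 21, where counting error alone is 21.8%.

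**Figure D3:**
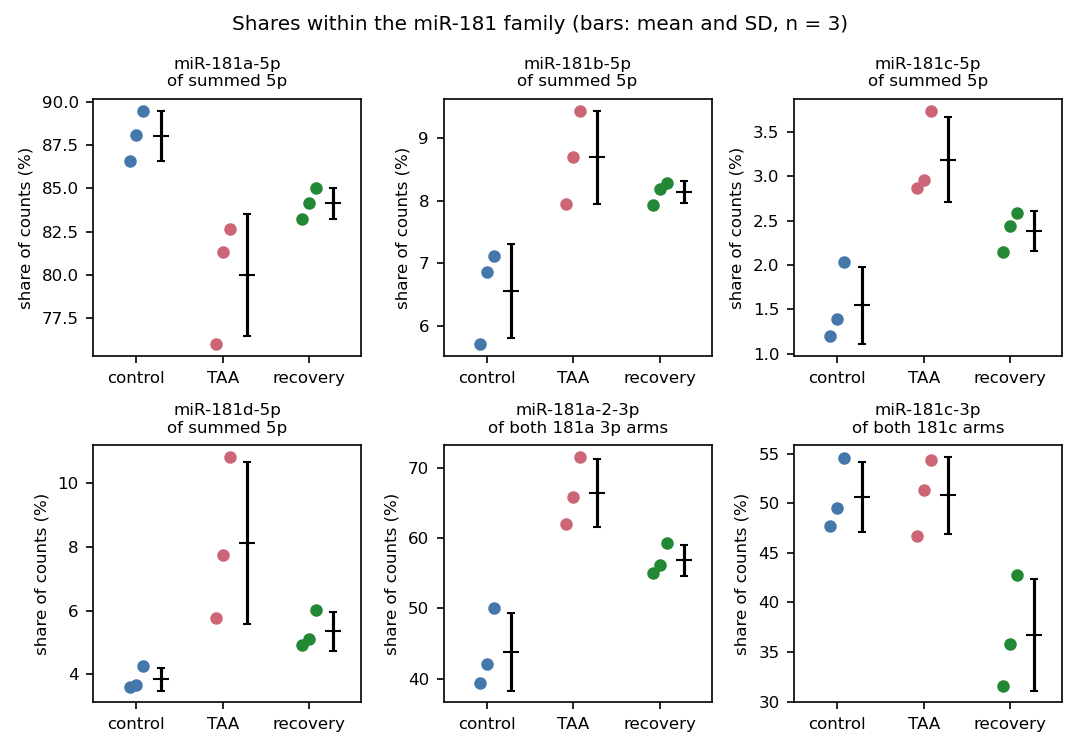
Shares of counts within the miR-181 family, in percent, with axes that do not start at 0. Points are livers and bars give the mean and SD of 3. The miR-181a-5p share falls from 88.1% to 80.0% under TAA, the miR-181a-2-3p share rises from 43.8% to 66.4%, and the miR-181c-3p share is lower in recovery, at 36.7%.

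Other miRNAs with a like pattern were looked for by Pearson's r of log2(CPM + 1) over the 9 livers, among 223 miRNAs with a mean of at least 10 CPM. The values are descriptions, since the livers share the 3 groups and the scaling. Nearest to miR-181a-5p were miR-199a-3p (r = 0.950), miR-224-5p (0.931) and miR-200c-3p (0.927). Nearest to miR-181b-5p were miR-199b-5p (r = 0.964), miR-200a-3p (0.958) and miR-199a-3p (0.945). For miR-181c-5p they were miR-200a-3p (r = 0.984), miR-199b-5p (0.978) and miR-429-3p (0.968), and for miR-181d-5p miR-200a-3p (r = 0.990), miR-497a-5p (0.988) and miR-200b-3p (0.984). The median r over the 223 lay between -0.05 and 0.07. The miR-199 miRNAs are known from mesenchymal cells, stellate cells included, and the miR-200 family from epithelium, which in liver means the bile ducts. Within the family, r was 0.972 between miR-181c-5p and miR-181d-5p and 0.952 between miR-181a-5p and miR-181b-5p, but 0.003 between the 3p arms of the miR-181a loci.

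Markers of the cell types a liver holds were measured beside the family, in 6 lists with 26 miRNAs, none of which had a group mean of 0. In TAA against control, 5 of 5 biliary epithelial markers were DEMs that were higher (median log2 fold change 2.24), with a summed level of 582 to 764 CPM in control, 3331 to 5534 CPM in TAA and 1240 to 1415 CPM in recovery. Of 6 mesenchymal and stellate markers, 4 were DEMs that were higher (median 1.55), namely miR-199a-5p, miR-199a-3p, miR-199b-5p and miR-214-3p. Their summed level, most of it miR-143-3p, overlapped between groups (25487 to 31117, 18053 to 39530 and 21880 to 35810 CPM). The other 2, miR-143-3p and miR-145a-5p, did not pass the test, with log2 fold changes of -0.02 (edgeR FDR 0.944) and -0.25 (edgeR FDR 0.272). In recovery against TAA 5 of 5 biliary (median -1.37) and 4 of 6 mesenchymal and stellate markers (median -1.26) were DEMs that were lower. The biliary markers and the miR-199 and miR-214 markers thus moved in the direction of the miR-181 DEMs, and miR-143-3p and miR-145a-5p were not shown to do so.

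Leukocyte markers, which include miRNAs of T cells, also moved in part with the family. Of 7, 2 were DEMs that were higher in TAA (median 0.74), miR-223-3p and miR-155-5p, and by the edgeR FDR alone 5 of 7 were higher, with miR-142a-3p, miR-150-5p and miR-342-3p added. In recovery against TAA 1 was a DEM that was lower, miR-223-3p (list median -0.75), and by the edgeR FDR alone 4 of 7 were lower. The summed leukocyte level was 573 to 778 CPM in control, 704 to 846 CPM in TAA and 602 to 1086 CPM in recovery. Most of this sum was miR-146a-5p, with means of 480 CPM in control, 452 CPM in TAA and 604 CPM in recovery. MiR-146a-5p did not pass the test in TAA against control, at -0.17 (edgeR FDR 0.452). Of 2 endothelial markers, miR-126a-3p and miR-126a-5p, 0 passed the fold limit with edgeR (2 of 2 had an FDR below 0.05 and were lower, median -0.68), with a summed level of 8477 to 8951 CPM in control, 5699 to 6894 CPM in TAA and 8347 to 9122 CPM in recovery. Hepatocyte markers, led by miR-122-5p, were lower in 3 of 3 (median -1.58), from 357026 to 372115 CPM in control to 105374 to 112146 CPM in TAA and 268773 to 397140 CPM in recovery. Of 3 red cell markers, led by miR-451a, 1 was lower (median -1.01), with summed levels of 789 to 1339, 206 to 461 and 329 to 622 CPM. In recovery against control, 1 biliary marker was a DEM that was higher (list median 0.88), 1 red cell marker was lower (-1.05), and the leukocyte, endothelial, mesenchymal and hepatocyte lists had 0 DEMs with edgeR (medians 0.11, -0.02, 0.32 and -0.20). By the edgeR FDR alone, in recovery against control, 3 of 5 biliary and 1 of 6 mesenchymal and stellate markers were higher. By the same rule 2 of 3 red cell markers were lower, and the other lists had none. The part of any of these cell types in the change of miR-181 was not tested.

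**Figure D4:**
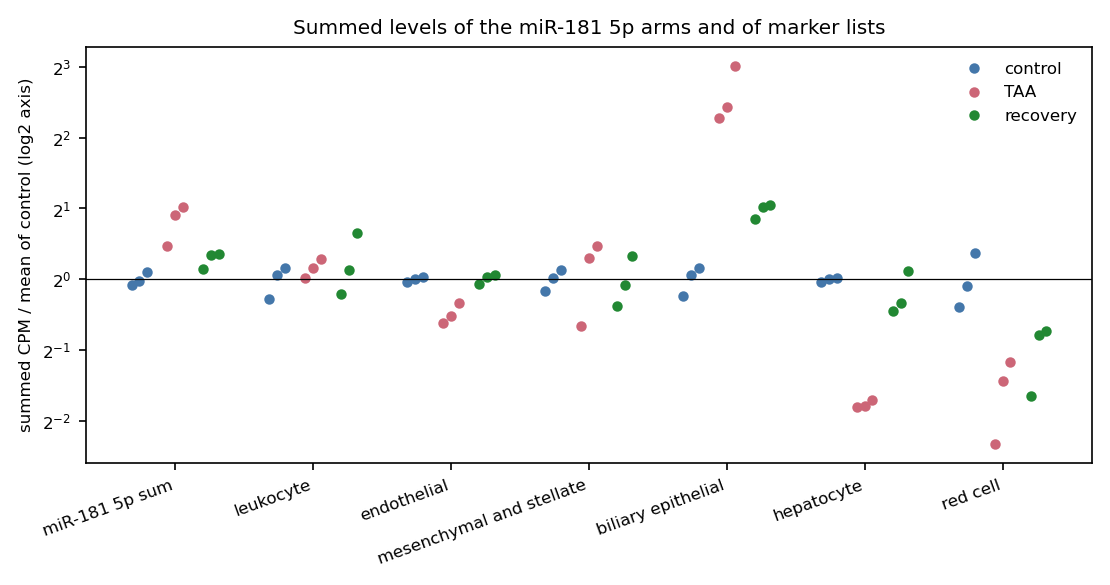
Summed CPM of the 4 miR-181 5p arms and of 6 marker lists in each liver, divided by the mean of control (log2 axis). Each point is a liver. The biliary epithelial sum is higher in all TAA livers (3331 to 5534 CPM) than in all control livers (582 to 764 CPM), as is the miR-181 sum, the hepatocyte sum is lower, and the leukocyte and mesenchymal sums overlap between groups.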

How the data were processed

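Small RNA was sequenced from whole liver of 9 mice, 3 per group by the labels, each a separate sample. The authors used TRIzol for extraction and a ligation-based kit for the libraries, mapped reads with Bowtie 1.3.0 to mm10 and miRBase, and deposited read counts per mature miRNA. The deposited table also holds TPM, which is the count divided by the column total, times 1000000, with no length term. How multiply matching reads and strand were handled was not given in the sources used here. Some entries had identical results, such as miR-142a-3p and miR-142b (both at a log2 fold change of 0.65 in TAA against control). MiR-338-3p and miR-3065-5p were likewise the same (both at -0.29). The abundant miR-122-5p and miR-122b-3p were nearly so (both at -1.96). Reads thus appear to have been counted for several entries, which also enters the library totals. Whether this held for reads of miR-181 was not tested.

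Counts were tested with edgeR 4.0.16 (R 4.3.3): the 6 samples of a comparison, filterByExpr with a minimum count of 10, TMM, quasi-likelihood F test without covariates, Benjamini-Hochberg over all miRNAs tested, and a call at a fold change of 2 or more with FDR under 0.05. The fit was run on simulated data with as many planted increases as decreases. The TMM assumption held there by construction, so that run does not bear on the scaling of the comparisons with TAA. Alternatives were DESeq2 1.42.0, its size factors, library totals, limma 3.58.1 on log2(TPM + 1) or log2(TPM + 0.1), other filters, a fit of all 9 samples, a replicate block and leaving out each replicate. Shares were tested with exact permutations, and scipy 1.17.1 was used for the remaining calculations. Log2 ratios used a pseudocount of 0.5.

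All family entries were named. Beyond them, the 3 miRNAs most correlated with each 5p arm and the most abundant marker of each list were named; the other mesenchymal, leukocyte and endothelial markers were named after their values were seen. The members and lists were chosen with earlier results of these data known.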

Additional observations from a re-analysis of the deposited data

Results flagged for a closer look

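MiR-181b-2-3p was not part of any test, because its counts were too low. It had 14 counts over the 3 TAA livers and 0 over the control and the recovery livers, and this signal above the control level, outside the tested miRNAs, is why it is given here. TAA libraries detected more entries in general, 806 to 828 against 631 to 663 in control and 675 to 722 in recovery.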

How the results depend on the processing

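In TAA against control the number of miR-181 DEMs stayed within 4 to 6 in every setting run, and was 5 with any 1 replicate left out. In recovery against TAA, where TMM with edgeR gave 2, it was 5 by the FDR alone, 7 with library totals, 6 with limma on log2(TPM + 1) and 7 with a pseudocount of 0.1, and 1 to 3 with a replicate left out (1 without TAA replicate 1). In recovery against control, where it was 0, it was 1 by the FDR alone, 1 with library totals and 1 with limma at 0.1, and 0 to 1 with a replicate left out (1 without control replicate 1). The summed 5p arms passed the fold limit in TAA against control with library totals (log2 1.85) and limma (1.84 and 1.84), and in recovery against TAA (-1.43, -1.41 and -1.41). With a replicate left out their log2 fold changes ranged from 0.63 to 0.87, -0.64 to -0.42 and 0.19 to 0.30. The median over all tested miRNAs moved as well. In TAA against control it went from 0.11 to 1.23 with library totals and to 1.07 and 1.23 with limma. In recovery against TAA it went from -0.12 to -0.98 with library totals, where 46.1% of all tested were DEMs that were lower, and to -0.80 and -0.94 with limma. The share of all tested that were DEMs with limma is not given. Library totals and limma on TPM do not correct for the counts that a few miRNAs take up, and the cause of these shifts was not tested.

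MiR-181a-1-3p in TAA against control turned from -0.24 to 0.87 with library totals and to 0.76 and 0.86 with limma. MiR-181c-3p in recovery against control, at 0.04, ranged from -0.21 to 0.23 with a replicate left out and was below 0 without control replicate 2 and without recovery replicate 3.

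With a replicate left out, the miR-181d-5p share changed by 2.92 to 5.45 percentage points between control and TAA and its exact permutation p rose to 0.05 to 0.0536 without each control replicate. The miR-181c-3p share changed by -17.1 to -11.5 points between recovery and TAA. The other 4 shares kept direction and call.

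The replicate block left 5, 2 and 0 DEMs, and log2 fold changes of the summed 5p arms of 0.71, -0.54 and 0.25. Deviations from the group means had an r from -0.36 to 0.37 between same-numbered samples. With 3 samples per group, and no comparison with differently numbered ones, this cannot decide whether the numbers mark a pairing. The replicates were separate mice, and 3 per group limit each test. Counts under 100 limit miR-181c and the 3p arms, and also miR-181d-5p in control replicates 2 and 3 (69 and 79 counts).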
